A study of Mus musculus with 10 samples.

Results

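Acetyl-CoA made outside mitochondria feeds fatty acid synthesis, and 8 genes of that route were followed in mouse CD8 T cells kept in low glucose. They are the synthetases Acss2 and Acss1, the citrate branch genes Slc25a1 and Acly, the acetyl-CoA carboxylases Acaca and Acacb, fatty acid synthase Fasn and malonyl-CoA decarboxylase Mlycd. They were chosen by name for their place in the pathway, all 8 were found among the 53465 gene identifiers, and 7 of the 8 had enough reads to be tested with 13182 genes in all. Acacb did not pass the filter on low counts.

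The cells came from spleens and peripheral lymph nodes of C57BL/6 mice carrying the OT-I transgene, whose T cell receptor recognises a peptide of ovalbumin. All groups shared the genotype, activation for 3 days with that peptide and interleukin-2 in 25 mM glucose, a switch to 1 mM glucose, and a final 4 h stimulation with phorbol ester and ionomycin. Restriction lasted 5 days in the libraries labelled d9 and 1 day in those labelled d5, and 5 mM sodium acetate was present or absent for the last day. The 10 libraries were d9 with acetate (n = 3), d9 without acetate (n = 3), d5 with acetate (n = 2) and d5 without acetate (n = 2). The labels give neither the age of the mice nor whether replicates came from separate animals or cultures, so the p-values reflect only how these samples spread, which may be technical. The labelled d5 and d9 do not equal the sum of the stated days. Cells kept in 25 mM glucose were not analysed here, so no value below compares restricted with unrestricted cells.

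Acetyl-CoA does not cross the inner mitochondrial membrane. Citrate leaves through the carrier encoded by Slc25a1 and is split by ATP citrate lyase (Acly) into acetyl-CoA and oxaloacetate, while Acss2 makes acetyl-CoA from free acetate in the cytosol and nucleus and Acss1 does so inside mitochondria. Acaca and Acacb carboxylate acetyl-CoA to malonyl-CoA, which Fasn uses to build palmitate and Mlycd turns back into acetyl-CoA. Activated T cells make fatty acids for new membranes, and acetyl-CoA from the same cytosolic and nuclear pool is used to acetylate histones.

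Positions are given for GRCm38 from GENCODE M21, joined by identifier. The synthetase genes both lie on chromosome 2, with Acss2 (ENSMUSG00000027605) at 155517948 to 155585724 on the plus strand and Acss1 (ENSMUSG00000027452) at 150618105 to 150668500 on the minus strand. In the citrate branch, Acly (ENSMUSG00000020917) lies on chromosome 11 at 100476353 to 100528000 on the minus strand. Slc25a1 (ENSMUSG00000003528) lies on chromosome 16 at 17925223 to 17928219 on the minus strand. Fasn (ENSMUSG00000025153) is on chromosome 11 at 120805846 to 120824547, minus strand, and Acaca (ENSMUSG00000020532) on the same chromosome at 84129672 to 84401651, plus strand. Acacb (ENSMUSG00000042010) is on chromosome 5 at 114146535 to 114250761, plus strand. Mlycd (ENSMUSG00000074064) is on chromosome 8 at 119394878 to 119411102, plus strand. Counts were per gene, so each value covers all exons, UTRs included, and no isoform was separated.

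The promoters of 4 of these genes are printed because Acss2 and Slc25a1 were the members that passed the test between d9 and d5, and Fasn and Acly were the most abundant per length. The sequences are from RefSeq on GRCm38.p6, read 5′ to 3′ on the gene's strand and ending at the base before the annotated start. The Acss2 stretch is the longest part of its 250-base window free of annotated exons, and has 155 bases against 250 in the others. That window overlaps exons of Acss2 itself and of Ggt7. Capitals mark matches, on either strand, to the GC box GGGCGG, the CCAAT box CCAAT and the E-box CANNTG.
Acss2, chr2:155517793-155517947 (+): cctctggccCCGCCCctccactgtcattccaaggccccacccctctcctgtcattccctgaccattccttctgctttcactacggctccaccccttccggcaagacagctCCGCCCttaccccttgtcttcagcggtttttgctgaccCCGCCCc
Slc25a1, chr16:17928220-17928469 (-): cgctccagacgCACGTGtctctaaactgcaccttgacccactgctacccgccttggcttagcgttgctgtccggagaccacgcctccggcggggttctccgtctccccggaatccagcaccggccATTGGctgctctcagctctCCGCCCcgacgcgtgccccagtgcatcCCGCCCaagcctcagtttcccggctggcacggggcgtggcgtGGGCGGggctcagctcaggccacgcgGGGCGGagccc
Fasn, chr11:120824548-120824797 (-): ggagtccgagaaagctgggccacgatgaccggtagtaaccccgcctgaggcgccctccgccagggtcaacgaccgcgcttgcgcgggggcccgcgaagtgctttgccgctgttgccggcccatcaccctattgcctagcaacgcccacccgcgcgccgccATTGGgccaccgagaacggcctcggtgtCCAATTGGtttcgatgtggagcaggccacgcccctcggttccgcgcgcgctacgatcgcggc
Acly, chr11:100528001-100528250 (-): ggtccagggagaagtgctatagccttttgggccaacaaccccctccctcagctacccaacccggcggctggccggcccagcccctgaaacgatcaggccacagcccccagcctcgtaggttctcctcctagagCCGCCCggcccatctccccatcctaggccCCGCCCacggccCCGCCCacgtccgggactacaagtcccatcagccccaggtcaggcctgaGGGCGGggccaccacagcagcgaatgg
The promoters of Slc25a1, Acly and Acss2 shared GC boxes, with 4 matches each in the 250-base window, although 1 of those of Acss2 and its CCAAT box lie in the part not printed. Of all 32851 mouse promoters of this length in the table, 32.7% held a GC box. Fasn had 0 GC boxes but 3 CCAAT matches and 1 E-box, which overlaps a pair of the CCAAT matches in the run CCAATTGG. A CCAAT box was found in 33.8% and an E-box in 66.2% of all promoters. The core of the sterol regulatory element, searched as TCACNCCA, was found in 0 of the 8 members' windows and in 3.67% of all promoters. The windows of Acaca and Acacb lie inside these genes as annotated in GENCODE, downstream of the gene start. The sequence before the GENCODE start of Acaca and Acacb was therefore not searched. A match is a run of letters and not a measured binding site.

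Libraries held 22.97 to 24.66 M counts at d9 and 16.59 to 17.97 M at d5. Of the d9 libraries, replicate 2 with acetate and replicate 1 without acetate stood apart from the other 4 on the second principal component, which held 11.4% of the variance. Their values on it were -26.1 and -19.9, against 2.24 to 21.8 in the other 4. The d5 libraries lay at -16.4 and -32.9 with acetate and at 18.2 and 29.2 without. Ribosomal protein genes took 15.1% and 15.5% of counts in the 2 d9 libraries that stood apart, against 11.2 to 12.7% in the other 4 at d9. In d5 libraries that share was 11.9% and 14.1% with acetate and 12% and 10.8% without it. Between replicates of a group, the chi-square of the counts per degree of freedom was 5.60 for d9 replicates 2 and 3 without acetate. Every other pair had 25.2 to 70.3, so that pair was far more alike, and whether it is technical is unknown. The summed level of 7 CD8 T cell markers, which include Cd3e and Cd8a, was 1985 to 3262 CPM (counts scaled to TMM library size) over the 10 libraries. All 5 adipocyte markers (Adipoq, Plin1, Fabp4, Lep, Cidec), from another cell type rich in these enzymes, had 0 counts in every library, which at a floor of 3 counts allows up to 0.126 to 0.175 CPM per library, for counting error only. B cell markers summed to 0.717 to 1.33 CPM in d9 with acetate, 1.14 to 1.78 in d9 without, 3.14 to 4.58 in d5 with acetate and 1.16 to 1.52 in d5 without. Monocyte and macrophage markers summed to at most 2.07 CPM, dendritic cell markers to 0.421 CPM, and fibroblast and endothelial markers to 0.337 CPM. The NK cell pair, of which Klrb1c gave nearly all counts, moved with the groups, at 18.3 to 25.9 CPM in d9 with acetate, 9.05 to 13.8 in d9 without, 5.21 to 6.05 in d5 with acetate and 1.23 to 1.82 in d5 without. The CD4 T cell markers summed to 4.99 to 8.01, 2.37 to 4.91, 7.51 to 8.05 and 10.0 to 11.5 CPM in the same group order. Over the 10 libraries Cd40lg had 1.21 to 11.27 CPM, Cd4 itself only 0.234 to 1.70 CPM and Foxp3 at most 0.112 CPM. The sum therefore does not show that CD4 T cells varied with the groups. Any part of NK or CD4 T cells in the results was not tested. In bulk RNA, fewer cells that express a gene and less RNA per cell cannot be told apart.

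Per length of exon, the transcripts of citrate cleavage and palmitate synthesis were highest, and those of the synthetases and Acacb lowest. Expressed as RPKM (reads scaled to exon length and TMM library size), Acly averaged 59.5 in d9 with acetate, 60.3 in d9 without, 64.4 in d5 with acetate and 66.5 in d5 without. Fasn came next at 52.8, 59.3, 32.2 and 53.1 RPKM in the same group order. In both d9 groups the difference between these genes was smaller than the SD of Fasn. Slc25a1 followed at 20.7, 19.8, 13.002 and 15.3 RPKM, then Acaca at 7.35, 6.80, 5.97 and 6.07 and Mlycd at 5.23, 6.67, 3.96 and 5.04. Acaca and Mlycd lay close together at d9 without acetate per exon length, but not over the longest transcripts, at 12.2 and 6.75 RPKM. Acacb had 4 to 10 counts in every library and at most 0.0427 RPKM as a group mean, so Acaca stood 243, 223, 160 and 209.8 times higher per exon length, or 399, 365, 261 and 344 times over the longest transcripts. These ratios rest on few Acacb counts, and the d5 libraries with acetate gave 104 and 215 per exon length. Acacb reached no call when it was fitted with no filter beyond 1 count, with edgeR adjusted p of 0.678 to 1 over the 6 comparisons and 23195 genes.

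**Figure D1:**
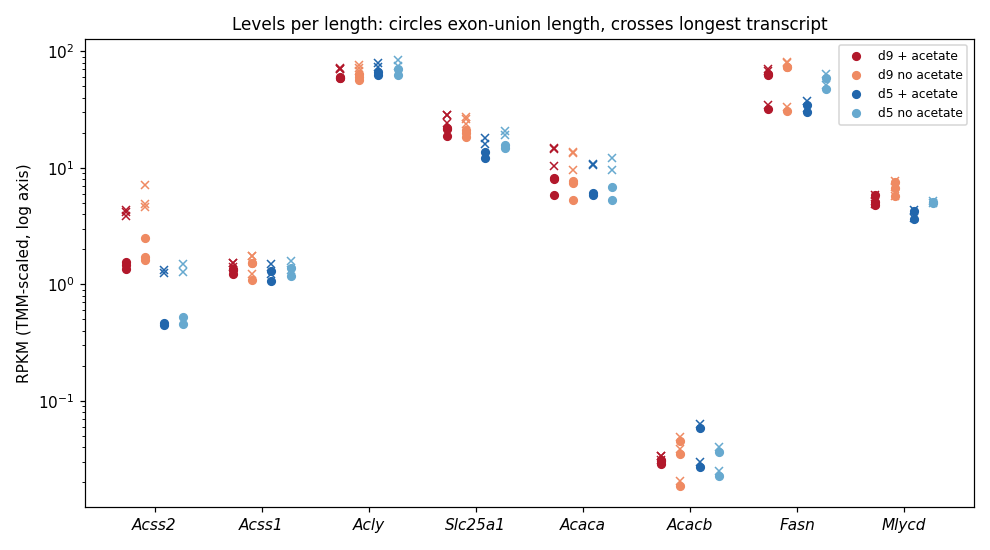
Level per exon length (RPKM, log axis) of the 8 genes in each of the 10 libraries, with groups shown by colour. Acly and Fasn lie at the top between 32.2 and 66.5 RPKM as group means, and Acacb at the bottom at no more than 0.0427 RPKM.

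The order of the synthetases changed with the days. With all annotated exons as the length, Acss2 averaged 1.46 RPKM in d9 with acetate, 1.96 in d9 without, 0.459 in d5 with acetate and 0.492 in d5 without, and Acss1 averaged 1.30, 1.38, 1.19 and 1.28. The mean ratio of Acss2 to Acss1 was thus 1.12 and 1.42 at d9 with and without acetate, and 0.391 and 0.385 at d5. Measured over the longest transcript of each gene instead, the ratio was 2.77, 3.51, 0.966 and 0.949. Acss1 thus had the higher d5 mean with either length, but by little over the longest transcripts. There the d5 libraries with acetate gave ratios of 0.846 and 1.09. Against Acly, the other cytosolic source of acetyl-CoA, Acss2 remained low, at 0.0246, 0.0327, 0.00712 and 0.00740 of the Acly level per exon length, or 0.0582, 0.0772, 0.0168 and 0.0175 over the longest transcripts.

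Acss2 was higher after 5 days than after 1 day of restriction, with or without acetate. Days in low glucose and total days in culture changed together in this comparison and cannot be told apart. Every d9 library was also deeper than every d5 library (22.97 to 24.66 M against 16.59 to 17.97 M counts). Any difference in how the d9 and d5 libraries were made cannot be told apart from the days either. Acss2, the acetate-using enzyme of cytosol and nucleus, had 15.8, 14.98 and 13.9 CPM in d9 with acetate, against 4.54 and 4.79 CPM in d5 with acetate. Without acetate it had 25.5, 17.6 and 16.6 CPM at d9, against 4.63 and 5.37 CPM at d5. Every d9 library was well above every d5 library. The log2 fold change was 1.67 ± 0.21 with acetate (3.19-fold, edgeR quasi-likelihood test, Benjamini-Hochberg adjusted p = 0.000193) and 1.99 ± 0.21 without it (3.97-fold, adjusted p = 7e-05, same test). These comparisons use separate libraries and a shared estimate of the spread, and both calls held in 16 of 16 alternatives. Exons of Acss2 overlap those of Gss over 395 bases and Ggt7 over 197 bases, both on the other strand, and whether reads were counted by strand is unknown here. In raw counts, which are not scaled to the deeper d9 libraries, Gss, a glutathione synthetase, had 520 to 644 counts at d9 with acetate and 567 to 619 without, against 334 to 408 at d5 with acetate and 306 to 340 without. Ggt7 had 22 to 35 and 33 to 51 counts at d9, against 107 to 119 and 93 to 96 at d5, again with acetate first. The antisense gene Acss2os had 0 counts in all 10 libraries.

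Slc25a1, the citrate carrier that supplies Acly, was also higher at d9. It had 40.3, 47.5 and 46.9 CPM in d9 with acetate, against 26.5 and 29.8 CPM in d5 with acetate. Without acetate it had 39.8, 43.5 and 45.4 CPM at d9, against 31.8 and 34.2 CPM at d5. No d9 library overlapped the d5 libraries in either setting, and the gap was wider with acetate. The log2 fold change was 0.67 ± 0.13 with acetate (1.60-fold, edgeR adjusted p = 0.00215), past the threshold in 16 of 16 alternatives. Without acetate it was 0.38 ± 0.13 (1.30-fold, edgeR adjusted p = 0.0381), and 8 of 16 alternatives ended this call. It was lost without either d5 library (adjusted p = 0.212 without replicate 1 and 0.108 without replicate 2), without d9 replicate 2 or 3 (0.0997 and 0.11), and with scaling by library size alone (0.11). The difference between the 2 day effects, equal to the difference between the acetate effects at d9 and d5, was 0.30 ± 0.18 on the log2 scale and did not pass (edgeR adjusted p = 0.704).

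Of the 7 tested members, these 2 were called higher at d9 and 0 lower in each setting. Among all 13182 genes, 41.6% were called with acetate (18.5% higher) and 37.1% without acetate (15.9% higher), so a share of 2 in 7 is near the background. Acss2, Slc25a1 and Mlycd, 3 of 7, had all d9 libraries above the d5 libraries, against 29.1% of all genes with acetate and 29.7% without. The median log2 change of the 7 was 0.40 with acetate and 0.16 without, against -0.01 for all tested genes in both settings.

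**Figure D2:**
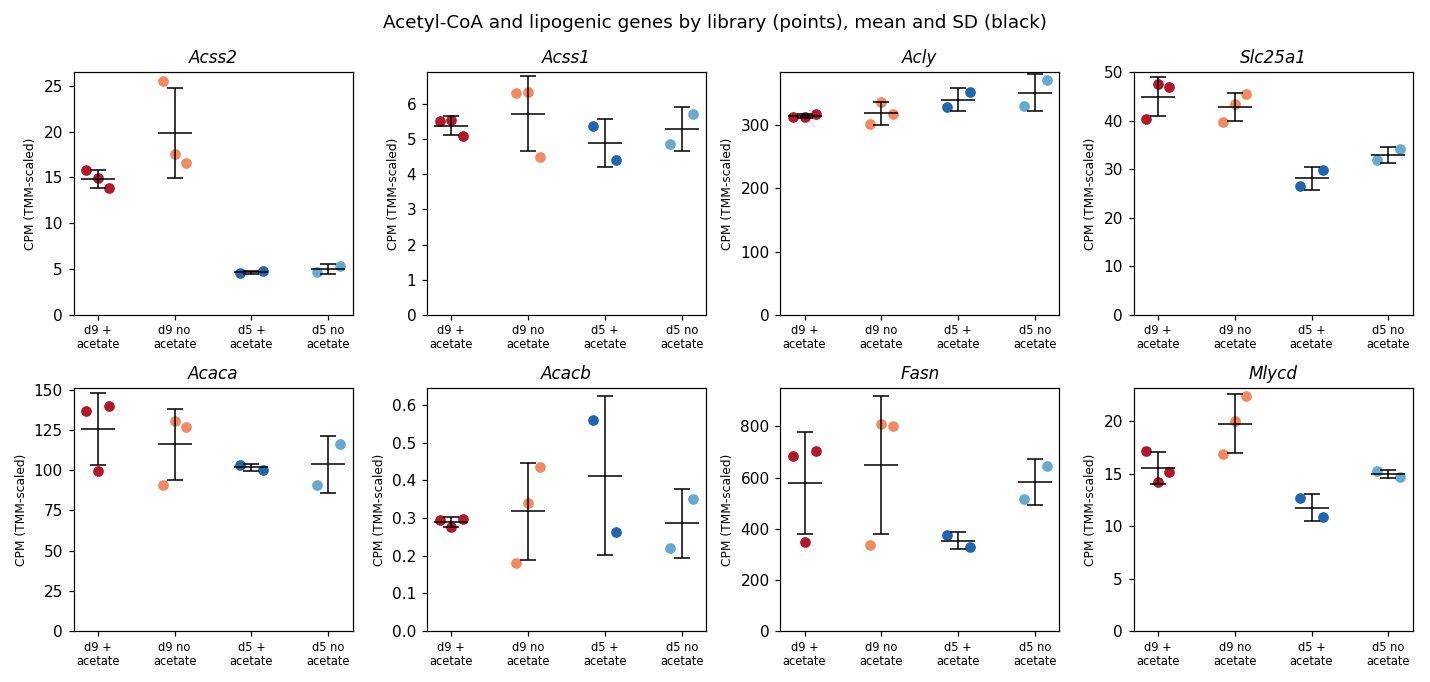
Level (CPM, TMM scaled) of each of the 8 genes by library, in separate panels, with the group mean and SD in black. Acss2 is 13.9 to 25.5 CPM in the 6 d9 libraries and at most 5.37 CPM in the 4 at d5, while Acly stays between 302 and 371 CPM.

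The mitochondrial synthetase and citrate lyase did not follow Acss2. Acss1 had 5.52, 5.54 and 5.07 CPM in d9 with acetate, 6.31, 6.35 and 4.48 in d9 without, 5.38 and 4.42 in d5 with acetate and 4.85 and 5.72 in d5 without. Its groups overlapped in every comparison, and its log2 change without acetate was 0.11 ± 0.20 (edgeR adjusted p = 0.694). Acly had 312, 313 and 317 CPM in d9 with acetate, 302, 337 and 317 in d9 without, 328 and 353 in d5 with acetate and 331 and 371 in d5 without. With acetate its d9 libraries all lay below its d5 libraries, by a log2 change of -0.12 ± 0.10 that did not pass (edgeR adjusted p = 0.396), and without acetate the change was -0.14 ± 0.10 (adjusted p = 0.314). With transcript length and GC trends removed, the d9 against d5 change of Acly with acetate was -0.33 and passed (edgeR adjusted p = 0.0181). Acly was among the steadiest members, with SDs of 2.62 to 28.9 CPM around group means of 314 to 351 CPM.

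Mlycd, which removes malonyl-CoA, had 17.2, 14.2 and 15.1 CPM in d9 with acetate, against 12.7 and 10.8 CPM in d5 with acetate. Without acetate it had 16.9, 20.1 and 22.4 CPM at d9, against 15.2 and 14.7 CPM at d5. All d9 libraries lay above the d5 libraries of the same setting. The log2 changes were 0.40 ± 0.16 with acetate (edgeR adjusted p = 0.0666) and 0.40 ± 0.16 without (adjusted p = 0.07), so neither passed, and in each setting 5 of 16 alternatives took it past the threshold. With length and GC trends removed the log2 change with acetate was 0.0029 (edgeR adjusted p = 0.988), and over the alternatives without acetate the lowest was 0.14.

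Fasn and Acaca, the consecutive enzymes from acetyl-CoA to palmitate, differed more between replicates than between groups at d9. Fasn had 683, 349.5 and 703 CPM in d9 with acetate and 337, 809 and 801 CPM in d9 without acetate. It had 376 and 329 CPM in d5 with acetate and 517 and 645 CPM in d5 without acetate. The low values at d9 were replicate 2 with acetate and replicate 1 without, which are the 2 libraries that stood apart and held the most ribosomal protein counts. Acaca was also lowest there, with 99.5 CPM in replicate 2 of d9 with acetate (137 and 140.0 in the others) and 90.8 CPM in replicate 1 of d9 without acetate (130.5 and 127 in the others). At d5 it had 103 and 100.3 CPM with acetate and 91.0 and 116 CPM without. Srebf1, which encodes a sterol regulated transcription factor that drives Fasn and Acaca, is named after its values were seen. It had 169, 139 and 233 CPM in d9 with acetate, 153, 243 and 249.7 in d9 without, 156 and 123 in d5 with acetate and 212 and 227 in d5 without. Its lowest d9 value in each group fell in the same libraries as for Fasn. Those of Srebf2 and Scap fell there too, whereas Mlx had its highest d9 values there. Any part of Srebf1 in the Fasn and Acaca values was not tested. The part of those libraries' quality in these values was not tested.

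**Figure D3:**
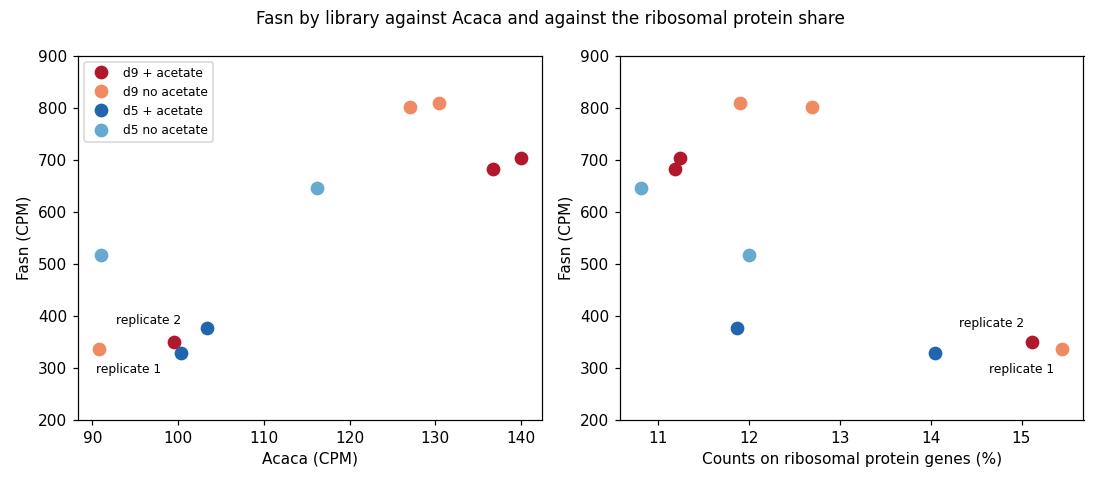
Fasn level (CPM) in the 10 libraries against the Acaca level (CPM, left) and against the ribosomal protein share of counts (%, right), with groups by colour. The d9 libraries marked replicate 2 (with acetate) and replicate 1 (without) have 349.5 and 337 CPM of Fasn at 15.1% and 15.5% ribosomal protein counts, apart from the other d9 libraries at 683 to 809 CPM.

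Across the 10 libraries, log2 levels of Fasn and Acaca had a Pearson r of 0.83, and of 0.96 after each group's mean was taken away. Fasn and Mlycd had 0.72 and 0.78. Acss2 and Slc25a1 had 0.85 over all libraries and -0.47 within groups, and Acss2 and Fasn had 0.26 and -0.68, so for both pairs the sign turned once group means were taken away. These are descriptions over libraries that share depth and groups. The d9 against d5 change of Fasn was 0.71 ± 0.38 with acetate (edgeR adjusted p = 0.155) and 0.16 ± 0.37 without (adjusted p = 0.767). Without both libraries that stood apart, the change with acetate was 0.97 ± 0.12 and passed (edgeR adjusted p = 6.55e-05). Without d9 acetate replicate 2 alone it was 1.01 and passed too (edgeR adjusted p = 0.0422). The change of Fasn without acetate was 0.45 ± 0.12 without both libraries (edgeR adjusted p = 0.00914), and with the ribosomal protein share as covariate Fasn passed in both settings, at 0.51 with acetate and 0.61 without (adjusted p = 0.015 and 0.0114). The log2 change of Acaca was 0.30 ± 0.19 with acetate (edgeR adjusted p = 0.237), or 0.44 without both libraries (adjusted p = 0.00791). Without acetate it was 0.16 ± 0.19 (edgeR adjusted p = 0.536). In each setting 1 of 16 alternatives took Acaca past the threshold. The 2 libraries that stood apart were picked from these data and held the lowest Fasn and Acaca values of their d9 groups. Leaving them out raises those d9 means and narrows the spread by construction, so the p-values of these fits are no independent support. The d9 group without acetate then rests on replicates 2 and 3, the pair most alike in their counts.

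Adding acetate for a day called no member at either time. At d9, 0 of 7 members passed against 0.0303% of all genes (edgeR), and 2 had an unadjusted p under 0.05, Acss2 and Mlycd. DESeq2 and limma-voom also called 0 members. The median log2 change of the 7 was -0.09, against 0.01 for all 13182 genes. Only Acss2 had its acetate libraries wholly below the others, as 8.79% of all genes did.

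The Acss2 values at d9 with and without acetate, given above, did not overlap. Acss2 averaged 14.9 ± 0.979 CPM in d9 with acetate and 19.9 ± 4.88 CPM in d9 without acetate (SD, n = 3 each), a log2 change of -0.42 ± 0.17 that did not pass (edgeR adjusted p = 0.276). The highest value belonged to replicate 1 without acetate, and without that library the change was -0.19 ± 0.14 (edgeR adjusted p = 0.51). Mlycd averaged 15.5 ± 1.51 CPM in d9 with acetate and 19.8 ± 2.77 CPM in d9 without (SD, n = 3 each), a log2 change of -0.35 ± 0.14 (edgeR adjusted p = 0.273), and its groups overlapped by 1 library. The other 5 members had log2 changes smaller than their SE at d9. The log2 change of Acly was -0.02 ± 0.09, that of Slc25a1 0.07 ± 0.11, Acss1 -0.09 ± 0.18, Acaca 0.11 ± 0.17 and Fasn -0.17 ± 0.33, with edgeR adjusted p of 0.818 to 0.949. The SE of Fasn is the widest of these, and each d9 group holds 1 of the libraries that stood apart.

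At d5, 0 of 7 members passed (edgeR, against 1.52% of all genes), 0 had an unadjusted p under 0.05, and DESeq2 and limma-voom also called 0. All 7 log2 changes were below 0, with a median of -0.11 against 0.01 for all genes. For 3 members the libraries with acetate lay wholly below those without, against 29.2% of all genes that did so with 2 libraries a side. The widest gap was that of Fasn, with 376 and 329 CPM in d5 with acetate against 517 and 645 CPM in d5 without, a log2 change of -0.72 ± 0.41 (1.65-fold lower, edgeR adjusted p = 0.349). The SE comes from all 10 libraries. These include the 2 that stood apart, which were picked from these data and held the lowest Fasn values of their d9 groups. Leaving those out narrows the SE by construction. Without those 2 the change was -0.72 ± 0.12 and passed (edgeR adjusted p = 0.00284), as it did in a fit of the 4 d5 libraries alone (-0.73 ± 0.14, adjusted p = 0.0132). With the ribosomal protein share as a covariate it was -0.27 (edgeR adjusted p = 0.36). Within these groups the d5 library with acetate that had the lower Fasn value also had the highest ribosomal protein share at d5, 14.1%.

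Mlycd and Slc25a1 were the other members whose d5 groups did not overlap. Mlycd averaged 11.8 ± 1.30 CPM in d5 with acetate and 14.97 ± 0.358 CPM in d5 without (SD, n = 2 each), a log2 change of -0.35 ± 0.18 (edgeR adjusted p = 0.294). Slc25a1 averaged 28.1 ± 2.38 CPM in d5 with acetate and 33.0 ± 1.66 CPM in d5 without, a log2 change of -0.23 ± 0.14 (edgeR adjusted p = 0.38). The log2 change of Acss2 was -0.10 ± 0.24, that of Acss1 -0.11 ± 0.22, Acly -0.05 ± 0.12 and Acaca -0.02 ± 0.21, with edgeR adjusted p of 0.818 to 0.964. Acss2, the enzyme that uses acetate in the cytosol, thus differed by less than its SE after a day of acetate at d5, with 4.66 ± 0.174 CPM in d5 with acetate and 5.00 ± 0.523 CPM without (SD, n = 2 each).

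**Figure D4:**
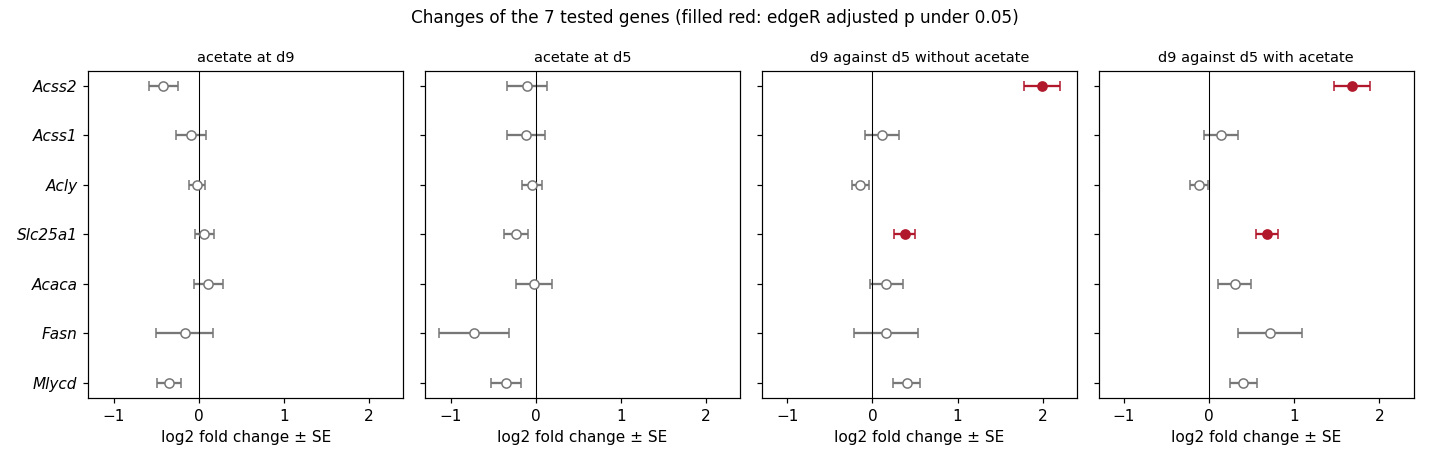
Log2 fold change of the 7 tested genes in the d9 against d5 comparisons and the acetate against none comparisons, with bars for 1 SE; filled points passed an edgeR adjusted p of 0.05. Acss2 stands at 1.67 and 1.99 between days and at -0.42 and -0.10 for acetate.

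The difference between the acetate effects, d9 minus d5, passed for 0 of 7 members and 0% of all genes in edgeR. At an unadjusted p under 0.05 there were 0 members and 1015 genes, and DESeq2 called 102 genes and 0 members. It was 0.55 ± 0.53 for Fasn (edgeR adjusted p = 0.759) and -0.32 ± 0.29 for Acss2 (adjusted p = 0.753), so neither an equal nor an unequal response was shown. The acetate effect averaged over both days, which is made from the same values, also called 0 of 7 members, against 5.89% of all genes. Mlycd came nearest, with a log2 change of -0.35 ± 0.11 (unadjusted p = 0.0102, edgeR adjusted p = 0.0907), lower in both days. It passed in 3 of 20 alternatives, which were leaving out d9 replicate 1 without acetate (adjusted p = 0.0346), leaving out both libraries that stood apart (0.0271) and the ribosomal protein share as covariate (0.024). Fasn averaged -0.44 ± 0.26 (edgeR adjusted p = 0.323), or -0.46 ± 0.08 without both libraries that stood apart (adjusted p = 0.00452). That fit leaves out the lowest Fasn and Mlycd value of each d9 group, so its p-values are no independent support.

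A list of 21 further genes of fatty acid synthesis was taken, of which 20 were tested. Most lengthen, desaturate or activate fatty acids after Fasn, but Acsf3, Mcat, Oxsm, Mecr, Me1, Mid1ip1 and Thrsp do not. At d9 against d5 with acetate, 7 were called higher and 2 lower (edgeR, median 0.15, against 41.6% of all genes called). Without acetate 5 were higher and 3 lower (median 0.23, against 37.1%). Those called higher included Me1 with acetate (edgeR adjusted p = 0.0237) and without (0.0459), and Mid1ip1 with acetate (0.0301). Me1 was near the floor at d5, with 0.504 and 0.210 CPM with acetate and 0.331 and 1.17 CPM without. Scd2, the stearoyl-CoA desaturase isoform that makes monounsaturated fatty acids, averaged 897 ± 185 CPM in d9 with acetate, 599 ± 57.9 in d9 without, 360.4 ± 39.9 in d5 with acetate and 239 ± 15.2 in d5 without. Its log2 change with the days was 1.32 ± 0.17 with acetate and 1.33 ± 0.17 without (edgeR adjusted p = 0.000251 and 0.000257), past the threshold in 16 of 16 alternatives each. Elovl1, an elongase of very long chain fatty acids, rose by 0.61 ± 0.10 and 0.64 ± 0.10 (adjusted p = 0.000933 and 0.000778). Scd1, a second desaturase, rose by 0.86 ± 0.18 with acetate and 0.91 ± 0.18 without (edgeR adjusted p = 0.00326 and 0.00293). Of the acyl-CoA synthetases, which activate free fatty acids, Acsl4 was lower. Its log2 changes were -0.88 ± 0.18 with acetate and -1.07 ± 0.18 without (edgeR adjusted p = 0.0032 and 0.00114). Acsl3, at only 1.08 to 3.51 CPM as group means, stood at -0.98 ± 0.29 and -1.46 ± 0.28 (edgeR adjusted p = 0.0214 and 0.00233). Acsl5, at 333 to 402 CPM, was not called (-0.25 and -0.13, edgeR adjusted p = 0.0759 and 0.333). Acsl1 was not called either (0.15 and 0.31, edgeR adjusted p = 0.367 and 0.0729). With length and GC trends removed the Acsl4 changes were -0.0872 and -0.28, and neither passed (edgeR adjusted p = 0.597 and 0.0931). Without d5 acetate replicate 1 the Acsl4 call with acetate was lost too (adjusted p = 0.0529).

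Acetate called 0 of these 20 genes at d9 and 0 at d5 in edgeR, against 0.0303% and 1.52% of all genes. Averaged over both days it called 2 higher and 1 lower, against 5.89% of all genes called. Scd2 was higher, by 0.59 ± 0.12 (edgeR adjusted p = 0.023), with 0.58 at d9 and 0.59 at d5. Elovl5, an elongase of polyunsaturated fatty acids, was higher by 0.43 ± 0.11 (adjusted p = 0.0438), and Elovl7, an elongase of saturated chains, was lower by a log2 change of -0.80 ± 0.17 (adjusted p = 0.0278). These calls were kept in 15, 10 and 13 of 20 alternatives, and all 3 were lost when any 1 of the 4 d5 libraries was left out. At d9 the genes of smallest p were Scd2 (edgeR adjusted p = 0.142) and Tecr, a reductase of chain elongation (-0.36, adjusted p = 0.21). At d5 they were Elovl7 (-1.10, edgeR adjusted p = 0.0699) and Scd2 (adjusted p = 0.127).

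Of 21 regulators of these enzymes, 19 were tested, and 2 were called higher and 3 lower at d9 against d5 with acetate (edgeR, against 41.6% of all genes called), and 2 higher and 2 lower without (against 37.1%). Sirt2, a cytosolic deacetylase, rose by 0.68 ± 0.11 with acetate and 0.48 ± 0.11 without (edgeR adjusted p = 0.000896 and 0.00649). Sirt1, a nuclear deacetylase that also activates Acss2 protein, was lower, by log2 changes of -1.17 ± 0.21 and -1.31 ± 0.21 (edgeR adjusted p = 0.00155 and 0.000913). Insig1, which retains the sterol sensor complex in the endoplasmic reticulum, fell by 0.48 ± 0.11 with acetate (adjusted p = 0.00664), and Stk11, the kinase upstream of AMPK, rose by 0.47 ± 0.12 with acetate (adjusted p = 0.0123). Without acetate Insig1 stood at -0.03 and Stk11 at 0.28 (edgeR adjusted p = 0.856 and 0.0973). The Stk11 call held in 13 of 16 alternatives, and was lost without either d5 acetate library (edgeR adjusted p = 0.0646 and 0.0812) and with length and GC trends removed (0.06, adjusted p = 0.679). Without acetate Mlx, the binding partner of a carbohydrate responsive factor, rose by 0.45 ± 0.15 (edgeR adjusted p = 0.0365), a call held in 11 of 16 alternatives, while with acetate it stood at 0.32 (adjusted p = 0.11). Mlxipl, which encodes that factor, had at most 0.0847 CPM in any library and was not tested. Mbtps2, a protease that activates sterol regulated factors, was lower in both settings, by log2 changes of -0.63 ± 0.18 with acetate and -0.61 ± 0.18 without (edgeR adjusted p = 0.0154 and 0.0212), and the call without acetate held in 10 of 16 alternatives. Acetate called 0 of the 19 at either day, against 0.0303% of all genes at d9 and 1.52% at d5 (edgeR). Nearest at d9 were Insig1 (-0.49, edgeR adjusted p = 0.0991) and the mitochondrial deacetylase Sirt3 (0.46, adjusted p = 0.195), and at d5 Prkab1 (-0.57, adjusted p = 0.0516) and Insig2 (0.42, adjusted p = 0.21). Averaged over both days 1 of the 19 was called, against 5.89% of all genes. It was Prkab1, a regulatory subunit of AMPK, which phosphorylates and inhibits the carboxylases. Prkab1 was lower with acetate in this average by a log2 change of -0.40 ± 0.08 (edgeR adjusted p = 0.0222), a call kept in 14 of 20 alternatives.

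Of 19 other makers, users and carriers of acetyl-CoA and acetate, 17 were tested, and 3 were called higher and 5 lower at d9 against d5 with acetate (edgeR, median -0.30, against 41.6% of all genes called) and 1 higher and 2 lower without (median -0.08, against 37.1%). Slc25a20, the carnitine carrier of fatty acid import into mitochondria, rose by 0.91 ± 0.15 with acetate and 0.57 ± 0.15 without (edgeR adjusted p = 0.000942 and 0.0125). Dld, a subunit of pyruvate dehydrogenase and related complexes, was lower, by log2 changes of -1.302 ± 0.20 and -0.64 ± 0.20 (adjusted p = 0.000601 and 0.0305). Pdha1, another subunit of pyruvate dehydrogenase, fell by 0.34 ± 0.11 with acetate (edgeR adjusted p = 0.0274), and Slc16a1, a monocarboxylate transporter, fell by 0.49 ± 0.16 (adjusted p = 0.0271). Acat2, a cytosolic thiolase that joins acetyl-CoA units for sterol synthesis, was lower, by log2 changes of -0.68 ± 0.22 with acetate and -0.87 ± 0.21 without (edgeR adjusted p = 0.0274 and 0.00803). Without acetate Pdha1 stood at -0.18 and Slc16a1 at -0.21 (edgeR adjusted p = 0.231 and 0.327). The calls of Pdha1 and Slc16a1 with acetate held in 8 and 11 of 16 alternatives, and that of Dld without acetate in 10 of 16.

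Acetate called 0 of the 17 at d9 and 0 at d5 in edgeR, against 0.0303% and 1.52% of all genes. Averaged over both days it called 2 higher and 0 lower, against 5.89% of all genes called. Dld was higher with acetate in this average by 0.62 ± 0.14 and Slc16a1 by 0.46 ± 0.11 (edgeR adjusted p = 0.0361 and 0.0389), in 13 and 10 of 20 alternatives. Dld averaged 42.8 ± 8.75 CPM in d9 with acetate and 35.1 ± 8.13 in d9 without, and 105 ± 4.36 in d5 with acetate against 54.6 ± 5.78 in d5 without (SD). Its acetate effects at d9 and d5 differed by -0.67 ± 0.29, which did not pass (edgeR adjusted p = 0.63).

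**Figure D5:**
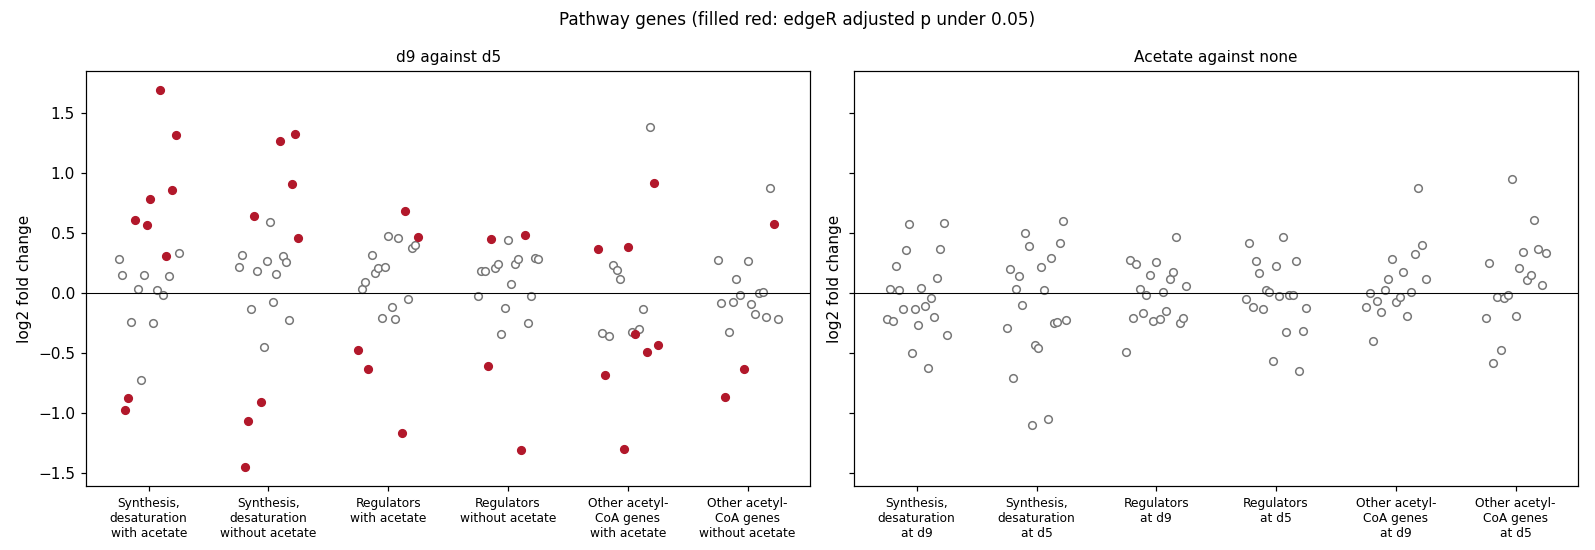
Log2 fold changes of the tested genes of the 3 lists, each point 1 gene, for d9 against d5 (left) and acetate against none (right); filled points passed an edgeR adjusted p of 0.05. Called genes lie on both sides of 0 between days, and the acetate panel has 0 called.

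Of 11440 protein-coding genes, those whose log2 level followed Acss2 most closely over the 10 libraries were Cnn2 (Pearson r = 0.99), Mx1 (0.99) and Hmox1 (0.99), and 607 genes had an r above 0.9. For Fasn they were Wiz, Trrap and Setd1a (0.99 each), with 431 genes above 0.9. For Acaca they were Nfe2l2 (0.99), Nfic (0.97) and Chd4 (0.96), with 70 above 0.9. Acly had only 3 genes above 0.9, Creb3l4 (0.93), Mid1 (0.93) and Alg8 (0.91). These are descriptions over libraries that share groups, days and the 2 that stood apart.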

How the data were processed

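Polyadenylated RNA of 10 libraries was sequenced from a stranded mRNA kit, per the labels. Raw counts of reads per gene were deposited by the authors, as whole numbers with 1 file for each library. The names deepTools, STAR, featureCounts, DESeq2 and the build GRCm38 appear in the submitters' processing notes, which state no role, setting, strand or annotation release. Of 53465 identifiers, 53360 matched GENCODE M21, and the 105 others took up to 0.00689% of the counts in a library.

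TMM scaling and the filterByExpr filter left 13182 genes (R 4.3.3, edgeR 4.0.16). The 4 group means were fitted together by the edgeR quasi-likelihood model (6 residual degrees of freedom, biological coefficient of variation 0.161), and p-values were Benjamini-Hochberg adjusted over all 13182 genes at 0.05. SE is the log2 fold change over the square root of F. CPM and RPKM were computed from the counts with TMM sizes. Library totals of 16.59 to 24.66 M limit precision for the lowest genes. A separate fit with no filter beyond 1 count was used for Acacb.

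Alternatives were DESeq2 1.42.0, limma-voom (limma 3.58.1), other scalings and filters, the replicate number as a block, only the groups compared, and leaving out each library. Others were the ribosomal protein share as covariate, length and GC trends removed, and leaving out the 2 d9 libraries that stand apart. Those 2 libraries were picked from these data. The same alternatives were applied to the list genes after the data had been seen. The code was tested on simulated counts. Members and lists were chosen with earlier results of these data known. All 8 members were named in every comparison, and per list up to 4 genes of smallest p past the threshold, or, with none past it, the 2 of smallest p. Further list genes were named outside this rule, such as Me1, Mid1ip1 and Acat2 with acetate. No count of alternatives is given for those. For likeness, the 3 genes of highest r were named. Flags for outlying samples need groups of 4 or more and were not applied.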

Additional observations from a re-analysis of the deposited data

How the results depend on the processing

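Of the log2 changes of the 7 tested members under all alternatives, 644 kept their direction and side of the threshold, 24 passed newly, 8 lost the call and 52 changed sign. All 8 losses were those of Slc25a1 between days without acetate. The cause of the changes below was not tested.

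The number of members past the threshold varied as follows. For acetate at d5 it was 0, but 1 (Fasn) without the 2 d9 libraries that stand apart and 1 with only the groups compared. For d9 against d5 with acetate it was 2, but 4 with the ribosomal protein share as covariate, 5 without those 2 libraries, 3 with DESeq2 size factors, the DESeq2 Wald test and length and GC trends removed, and 2 to 4 when single libraries were left out. For d9 against d5 without acetate it was 2, but 1 with library size only, with no filter beyond 1 count and with length and GC trends removed, 5 with the ribosomal covariate, 4 without the 2 libraries, 3 with DESeq2 size factors and the DESeq2 Wald test, and 1 to 3 when single libraries were left out. For acetate averaged over both days it was 0, but 1 with the ribosomal covariate, 2 without the 2 libraries and 0 to 1 when single libraries were left out.

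The replicate numbers were not taken to pair the samples. Deviations of same-numbered d9 libraries with and without acetate correlated at -0.14, -0.39 and 0.33, and those at d5 at 0.03. Same-numbered d9 and d5 libraries correlated at 0.16 and 0.22 with acetate and 0.16 and 0.11 without, over only 2 shared numbers in each setting. With the replicate block, 1 member was called for d9 against d5 without acetate, Slc25a1 stood at 0.34 (edgeR adjusted p = 0.0594), Fasn at -0.0233, and 62 genes were called for acetate at d5.

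Signs that turned were all of changes that had not passed, apart from Mbtps2. With length and GC trends removed, Mbtps2 without acetate turned to 0.0962 between days, Acss1 to -0.0491 with and -0.0257 without acetate, and for acetate at d5 Acaca turned to 0.2138 and Acly to 0.0681. For averaged acetate Acly turned to 0.0238 and Slc25a1 to 0.0298. With the ribosomal covariate Acaca turned to 0.1852 for acetate at d5, and without the 2 libraries Slc25a1 turned to -0.009 for acetate at d9. The difference of acetate effects (d9 minus d5) turned for Mlycd, to -0.0045 with DESeq2 size factors, -0.0058 with no filter, -0.0146 with a filter of 2 CPM, -0.004 in the DESeq2 Wald test, -0.1498 with the ribosomal covariate, -0.1355 with length and GC trends removed and -0.0247 without the 2 libraries. With the ribosomal covariate it turned to -0.009 for Acly, -0.1787 for Acaca and -0.0999 for Fasn. With length and GC trends removed it turned to -0.0887 for Acly, -0.1409 for Acaca and -0.0234 for Acss1.

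Leaving out single libraries gave these log2 ranges. For acetate at d9 they were -0.0503 to 0.0243 for Acly, -0.029 to 0.2675 for Acaca and -0.4675 to 0.1082 for Fasn. For acetate at d5 they were -0.2605 to 0.023 for Acss1, -0.2068 to 0.0053 for Acss2, -0.1296 to 0.037 for Acly and -0.1923 to 0.1585 for Acaca. For d9 against d5 without acetate they were -0.0031 to 0.2609 for Acss1, -8e-04 to 0.3568 for Acaca and -0.0322 to 0.4887 for Fasn. For the difference of acetate effects they were -0.125 to 0.1729 for Acss1, -0.0578 to 0.1092 for Acly, -0.0474 to 0.3031 for Acaca and -0.1059 to 0.1189 for Mlycd. For averaged acetate they were -0.075 to 0.0081 for Acly and -0.0407 to 0.1348 for Acaca.

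Scaling by library size only moved the median of all genes between days by -0.10 on the log2 scale in both settings. It took the share of calls that were higher at d9 to 33.9% with acetate (44.5% as reported) and 32.3% without (42.8% as reported), and removing length and GC trends took it to 51.8% and 53.3%. Acss2 remained past the threshold under each of these. Over all genes, acetate at d9 called 4, against 0 to 18 without single libraries and 3 to 958 under the other alternatives. Acetate at d5 called 201, against 0 to 10 and 62 to 2162, and averaged acetate called 777, against 27 to 1659 and 484 to 2904. Between days, 5480 genes with acetate compare with 3108 to 5698 and 4556 to 7203, and 4895 without acetate with 2803 to 4763 and 4247 to 6125. The difference of acetate effects called 0, against 0 to 1 and 0 to 255. Of 64 group levels per length, 20 moved by more than 1 SD, 19 of them with the longest transcript as length. With 4 to 10 counts per library, changes of Acacb were not detectable at this depth.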
